A study of Mus musculus with 14 samples.

Results

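The lymphoid priming genes are 10 genes that steer blood progenitors toward the B and T lineages, taken by name: Ikzf1, Ikzf2, Foxo1, Tcf3 and Notch1 as early priming factors, and Ikzf3, Il7r, Ebf1, Pax5 and Rag1 as late lymphoid genes. They are 10 of 21440 protein-coding genes whose start could be placed. H3K4me3, the trimethylation of lysine 4 of histone H3, marks the starts of active and poised genes. The study describes profiling it by CUT&Tag, in which an antibody brings a transposase to the mark so that sequenced fragments pile up there. CUT&RUN is the assay named in the labels. LSK cells (Lin-Sca1+cKit+), the compartment of the BM that holds hematopoietic stem and progenitor cells (HSPCs), were sorted from male C57BL/6J mice fed a high-fat diet (HFD-LSK) or the matched low-fat control diet (LFD-LSK). The labels give 3 HFD-LSK and 4 LFD-LSK libraries, each with 1 peak list, and no genetic change or other treatment in either group. Nothing in the labels says that the libraries came from separate mice, so the p-values below measure the spread between these samples, which may be technical. Before the sort, BM cells were depleted with antibodies that included CD127, the protein made from Il7r. The lymphoid markers B220, CD3, CD4, CD5 and CD8 were targeted too, as were erythroid and myeloid markers. In both groups the depletion was therefore aimed at all these lineages and not at lymphoid cells alone. The comparison asked where H3K4me3 in these progenitors differs with diet-induced obesity.

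As background, Ikaros (Ikzf1) and its relative Helios (Ikzf2) are zinc-finger DNA-binding proteins already present in stem and multipotent cells, and Ikaros is needed for lymphoid fate. Tcf3 encodes the E2A proteins, basic helix-loop-helix factors that open lymphoid genes, Foxo1 encodes a forkhead factor needed for early B cells, and Notch1 encodes the receptor whose signal directs progenitors to the T lineage. Ebf1 and then Pax5 fix the B lineage, Il7r encodes the IL-7 receptor alpha chain of lymphoid progenitors, Rag1 encodes a subunit of the recombinase that assembles antigen receptor genes, and Aiolos (Ikzf3) acts at later lymphoid stages.

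Each library was represented by the regions called as enriched over background, and each peak had a fold enrichment at its summit. A gene start was the 5′ end of the gene in RefSeq GRCm38.p6, and it counted as called when a peak came within 1 kb. The early factors lie at chr11:11684962-11772930 on the plus strand (Ikzf1), chr1:69531207-69687351 on the minus strand (Ikzf2), chr3:52268337-52350109 on the plus strand (Foxo1), chr10:80409541-80433976 on the minus strand (Tcf3) and chr2:26457902-26503822 on the minus strand (Notch1). The late genes lie at chr11:98464610-98546031 on the minus strand (Ikzf3), chr15:9506159-9529941 on the minus strand (Il7r), chr11:44618100-45008096 on the plus strand (Ebf1), chr4:44524748-44710694 on the minus strand (Pax5) and chr2:101638252-101649532 on the minus strand (Rag1).

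The letters before the starts are shown because the members that carried H3K4me3 and those that did not can be compared on them. RefSeq promoter entries in GRCm38.p6 matched 8 of the 10 genes, with 10 starts, since Ikzf1 and Ebf1 have 2 entries each. The 250 bases before the start are printed 5′ to 3′ on the strand of the gene, and capitals mark every CpG. The first set, from 3 early factors, includes both Ikzf1 entries, which lie at chr11:11685675-11685924 and chr11:11689927-11690176. The Foxo1 and Notch1 entries lie at chr3:52268087-52268336 and chr2:26503823-26504072.
Ikzf1, first entry: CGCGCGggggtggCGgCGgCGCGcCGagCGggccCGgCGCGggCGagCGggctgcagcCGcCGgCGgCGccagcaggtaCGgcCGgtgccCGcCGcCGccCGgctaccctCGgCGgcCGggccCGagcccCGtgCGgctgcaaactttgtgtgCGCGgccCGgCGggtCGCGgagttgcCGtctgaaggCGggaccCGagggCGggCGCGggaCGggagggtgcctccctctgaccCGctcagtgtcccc
Ikzf1, second entry: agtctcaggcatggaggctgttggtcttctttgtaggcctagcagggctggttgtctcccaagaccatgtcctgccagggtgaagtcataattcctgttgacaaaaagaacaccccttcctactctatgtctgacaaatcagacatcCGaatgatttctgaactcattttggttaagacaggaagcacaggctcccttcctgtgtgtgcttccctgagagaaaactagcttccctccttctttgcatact
Foxo1: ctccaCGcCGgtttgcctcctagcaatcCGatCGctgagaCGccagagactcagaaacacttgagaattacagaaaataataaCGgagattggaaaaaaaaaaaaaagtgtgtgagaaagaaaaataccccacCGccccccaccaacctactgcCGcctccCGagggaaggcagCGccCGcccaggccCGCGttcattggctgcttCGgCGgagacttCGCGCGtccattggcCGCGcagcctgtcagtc
Notch1: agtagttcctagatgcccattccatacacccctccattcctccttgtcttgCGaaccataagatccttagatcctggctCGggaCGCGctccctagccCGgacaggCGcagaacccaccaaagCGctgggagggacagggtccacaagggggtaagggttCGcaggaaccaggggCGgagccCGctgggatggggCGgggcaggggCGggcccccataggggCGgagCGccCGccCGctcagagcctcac

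The second set holds 3 late genes, at chr4:44710695-44710944 for Pax5, chr15:9529877-9530126 for Il7r and chr2:101649533-101649782 for Rag1.
Pax5: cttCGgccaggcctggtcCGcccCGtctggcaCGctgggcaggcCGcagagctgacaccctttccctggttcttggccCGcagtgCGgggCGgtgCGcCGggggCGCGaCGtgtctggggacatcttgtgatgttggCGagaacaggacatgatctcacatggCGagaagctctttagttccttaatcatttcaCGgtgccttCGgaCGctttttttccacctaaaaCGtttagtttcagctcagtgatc
Il7r: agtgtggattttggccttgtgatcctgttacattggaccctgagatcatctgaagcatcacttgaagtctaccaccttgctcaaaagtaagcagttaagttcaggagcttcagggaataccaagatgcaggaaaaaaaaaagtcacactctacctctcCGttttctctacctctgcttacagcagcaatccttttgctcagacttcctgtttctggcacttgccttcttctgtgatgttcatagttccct
Rag1: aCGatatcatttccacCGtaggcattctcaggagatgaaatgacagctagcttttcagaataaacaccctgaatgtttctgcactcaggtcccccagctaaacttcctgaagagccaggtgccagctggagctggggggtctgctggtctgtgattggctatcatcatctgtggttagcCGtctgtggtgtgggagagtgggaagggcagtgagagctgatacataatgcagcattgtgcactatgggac

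Over 32841 promoters of this length, the median ratio of observed to expected CpG was 0.374. The ratio was 1.05 before the first Ikzf1 entry, 1.04 for Foxo1, 1.00 for Tcf3 and 0.588 for Notch1, all above that median. The second Ikzf1 entry held 1 CpG, with a ratio of 0.0712. Among the late genes, Il7r (0.0844) and Rag1 (0.190) lay below the median, whereas Pax5 (0.880) and both Ebf1 entries (0.989 and 0.853) lay above it, so CpG content did not separate the late genes from the early factors. The Ikaros core TGGGAA, searched on both strands, was found before the second Ebf1 entry and before Rag1, 1 match each, and in 21.6% of all promoters. The E-box CAGGTG was found before Rag1 alone among the members and in 17.2% of all promoters. The EBF1 motif TCCCNNGGG was found before Foxo1, at 1 place that matched on both strands with overlapping letters, and in 5.60% of all promoters. TATAAA was found before none of the members' starts and in 12.4% of all promoters.

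The 7 lists held from 6921 to 13094 peaks, the HFD-LSK lists 9186 or more and the LFD-LSK lists 10572 or fewer, and from 28.5% to 49.2% of protein-coding starts were called in a list. Solving each peak's fold and p-value for whole fragments showed that the shallowest summit that was called held 16, 8 and 4 fragments in HFD-LSK replicates 1 to 3 and 21, 10, 8 and 9 fragments in LFD-LSK replicates 1 to 4. A start below these heights was not detectable, and the height needed rises with the local background. Of 10 genes expected in LSK cells, 6 were called in all 7 lists, with Mecom and Cd34 nearest the top, and 3 in some. Ly6a, which encodes the Sca-1 antigen of the sort, was called in none. None of 3 B cell, 4 T cell and 4 myeloid markers had a start peak in any list, which includes the defining genes Ms4a1, Cd3e and Itgam. Across all protein-coding starts, 20.2% were called in all 7 lists and 48.7% in none. The erythroid markers Epor and Klf1 were called in 3 and 5 lists, and Hbb-b1 could not be placed.

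The early factors and the late genes differed in every list. All 5 early factors had an H3K4me3 peak at their start in 7 of 7 lists, while across all protein-coding starts 20.2% were called in all 7 lists. None of the 5 late genes had a start peak in any of the 7 lists, while 48.7% of all protein-coding starts were called in none. No member was called in every list of 1 diet and in none of the other. Fisher's exact test can pass only for such starts, and 0.300% of the 10997 starts called in at least 1 list were in all HFD-LSK and no LFD-LSK lists, against 0% in the opposite direction. The early factors' summits held 12 to 84 fragments, compared with 4 to 21 at the shallowest summit of each list. Fragments at the uncalled starts of the late genes were not measured, so these starts were not shown to be free of the mark.

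**Figure D1:**
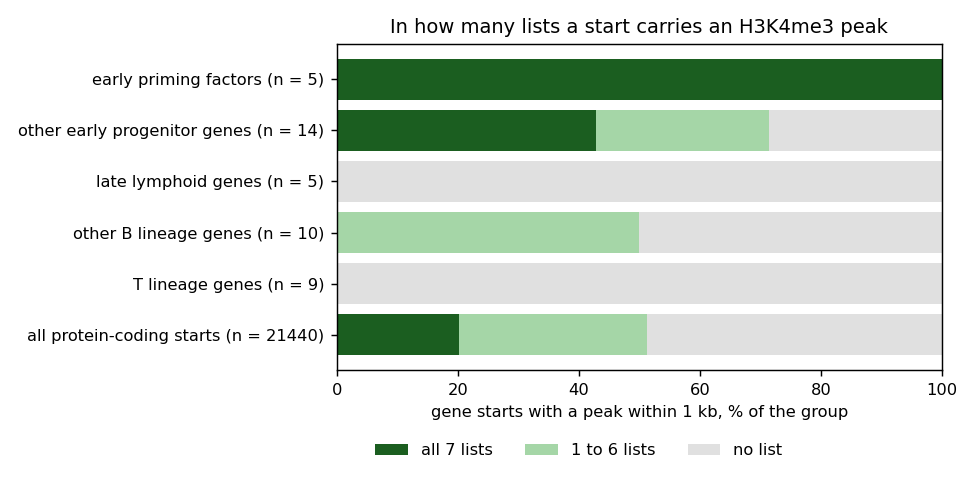
Share of gene starts with an H3K4me3 peak within 1 kb in all 7 lists, in 1 to 6 lists or in no list (horizontal axis, % of the genes of each group), for the members, for other lymphoid genes and for all 21440 protein-coding starts. The 5 early factors were called in all 7 lists and the 5 late genes in none.

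Distances from the late genes to their nearest peaks were listed, and the same distances at other uncalled starts are not given here. No list had a peak anywhere inside Ikzf3, Il7r, Ebf1 or Rag1. Inside Pax5, HFD-LSK replicate 2 alone had 1 peak, at chr4:44664224-44664753, which is 45941 to 46470 bp downstream of the start. Its fold enrichment was 4.68 and its place by fold was 12778.5 of 13094, near the end of the longest list. The nearest peak to the Pax5 start lay 44.9 to 45.6 kb away in all lists, at the start of its neighbor Zcchc7. For Ebf1 the nearest peak was 71.6 to 98.6 kb away, at the start of Rnf145 in 6 of 7 lists. For Il7r it was 219 to 389 kb away, at the start of Lmbrd2 or Spef2. Near Rag1 the closest peak was 20.5 to 147 kb away, at Iftap in 4 lists and at Traf6 in 2. For Ikzf3 the distance ran from 4.82 kb, at Zpbp2, to 107 kb.

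Within a list, peaks were ranked by fold enrichment, with place 1 the highest and tied peaks sharing a mean place. Fold enrichment divides a summit by the local background that the caller set in each list, so places and not folds were compared between lists. The study describes peaks that exceed a matched IgG control. Which reads set the background in these lists was not tested. A difference between diets was tested by an exact two-sided permutation test over the 35 ways to choose 3 of 7 lists. The smallest p that it allows is 0.0286. Benjamini-Hochberg adjustment was made over 10997 starts. Cohort and pairing of the libraries were not part of the test.

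Ikzf1 showed the widest gap between diets in place among the early factors. Its start peak held places 4077, 11351 and 3937.5 in HFD-LSK replicates 1, 2 and 3, and places 512.5, 200.5, 646 and 1547 in LFD-LSK replicates 1 to 4. Every HFD-LSK list had Ikzf1 farther from the top than every LFD-LSK list, with means of 6455 ± 4240 (SD, n = 3) and 726 ± 578 (SD, n = 4). The exact permutation p for the difference of 5729 places was 0.0286, and after adjustment over all starts it was 0.999, so the difference did not pass. Without HFD-LSK replicate 2 the difference was 3281 places. Among 4332 starts called in all 7 lists, 4.39% lay farther from the top in every HFD-LSK list and 1.27% nearer. On this scale Ikzf1 was 1 of 5 early factors without overlap, the other 4 overlapping.

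The values behind the place of Ikzf1 did not all move together. The summit held 84, 73 and 31 fragments in HFD-LSK replicates 1 to 3 and 78, 65, 32 and 26 in LFD-LSK replicates 1 to 4. As multiples of each library's implied mean coverage, the heights were 418, 272 and 268 in HFD-LSK and 365, 378, 240 and 292 in LFD-LSK. These heights overlapped, with means of 319 ± 85.7 (SD, n = 3) and 319 ± 64.7 (SD, n = 4), and an exact permutation p of 1.00. The local background that the caller set against the same summit was 25.0, 35.4 and 22.1 times the lowest background of the list in HFD-LSK. In LFD-LSK it was 1.00, 1.00, 1.00 and 2.11 times the lowest. Over all peaks of a list, the median of this multiple was 9.46 in HFD-LSK replicate 3 and from 1.00 to 1.41 in the other 6 lists. Converted to the scale of H3K4me3 fragments, this background came to 5.03, 9.50 and 2.56 in HFD-LSK and to at most 0.214 in LFD-LSK. On the caller's own scale it was 1.00, 4.00 and 2.33 in HFD-LSK and at most 0.0537 in LFD-LSK. The background was higher in every HFD-LSK list (exact permutation p = 0.0286, before adjustment), as it was at 14.0% of starts called in all 7 lists, whereas heights separated the diets at 1.96% of them. Fold was computed from this background, so place and background are not independent measures, and the part of the background in the place was not tested. When peaks were ranked by −log10 p, the difference at Ikzf1 was 4377 places and the diets overlapped (exact permutation p = 0.0571). When they were ranked by summit fragments, it was −49.7 places (exact permutation p = 0.886), so the direction reversed.

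**Figure D2:**
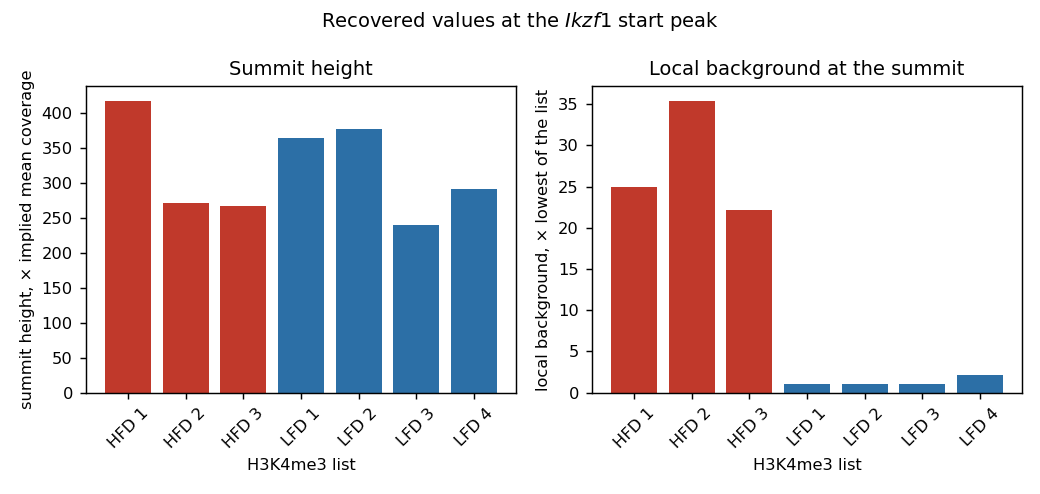
Recovered values at the Ikzf1 start peak, with 1 bar per H3K4me3 list. Left, summit height in multiples of the implied mean coverage, from 240 to 418 with the diets overlapping. Right, local background in multiples of the lowest background of the list, which spans 22.1 to 35.4 for HFD-LSK and 1.00 to 2.11 for LFD-LSK.

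Notch1 was nearest the top on average, at a mean place of 1721 ± 1770 (SD, n = 7 lists). Its start peak held places 2010, 1003 and 5544.5 in HFD-LSK and 512.5, 1319, 1260.5 and 400 in LFD-LSK. Replicate 3 of HFD-LSK was farthest from the top, replicate 2 lay among the LFD-LSK lists, and the diets overlapped (difference of 1980 places, exact permutation p = 0.0857, adjusted p = 0.999). Without replicate 3 of HFD-LSK the difference was 634 places. In HFD-LSK replicate 3 the background at the summit was 28.4 times the lowest of the list, against a median of 9.46 times over all peaks of that list and 1.00 to 2.13 times at Notch1 in the other 6 lists, and its part in the place was not tested. The summit height of Notch1 was 274, 272 and 276 times the mean coverage in HFD-LSK and 365, 273, 225 and 382 times in LFD-LSK. The 3 HFD-LSK heights lay inside the LFD-LSK range.

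Foxo1 followed with a mean place of 2492 ± 1301 (SD, n = 7 lists). Its places were 2576, 1658 and 1285 in HFD-LSK and 3435.5, 4880, 1324.5 and 2286.5 in LFD-LSK. The difference of HFD-LSK minus LFD-LSK was −1142 places, but LFD-LSK replicates 3 and 4 lay among the HFD-LSK lists (exact permutation p = 0.343). Heights at the Foxo1 summit were close in all lists, from 233 to 254 times the mean coverage over the HFD-LSK lists and 210 to 258 times over the LFD-LSK lists.

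Ikzf2 held places 1474, 1521.5 and 5458.5 in HFD-LSK and 2360.5, 1211.5, 3870.5 and 3784.5 in LFD-LSK. Its diet means differed by 11.2 places, much less than the SD of 2287 over the HFD-LSK lists, so unlike Ikzf1 its relative showed no gap on this scale (exact permutation p = 1.00). A test that the diet difference of Ikzf1 exceeded that of Ikzf2 was not run.

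Tcf3 was farthest from the top of the 5, at a mean place of 4484 ± 2697 (SD, n = 7 lists). It held places 3772.5, 2359.5 and 6331.5 in HFD-LSK and 1173.5, 8622, 2677 and 6449 in LFD-LSK. The LFD-LSK lists alone spanned the whole range, and the diets overlapped (exact permutation p = 0.800). At LFD-LSK replicate 2, where Tcf3 held place 8622, the background at its summit was 18.6 times the lowest of the list. At LFD-LSK replicate 4, the smallest list, the Tcf3 summit held 12 fragments, the fewest of any early factor in any list.

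Neighbors in the order of mean place were compared by their order within each list, and no paired test was run. Notch1 lay nearer the top than Foxo1 in 6 of 7 lists, and Ikzf1 nearer than Tcf3 in 5 of 7. Foxo1 lay nearer than Ikzf2 in 3 of 7 lists, and Ikzf2 nearer than Ikzf1 in 2 of 7, although the mean places put them in that order. The differences between neighbors, from 319 to 1302 places, were smaller than the SD over lists of either gene. That SD ignores that both genes share each list, so it does not measure the spread of the difference. The median of the mean places of the early factors was 2812, beside 3342 for all starts called in all 7 lists.

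**Figure D3:**
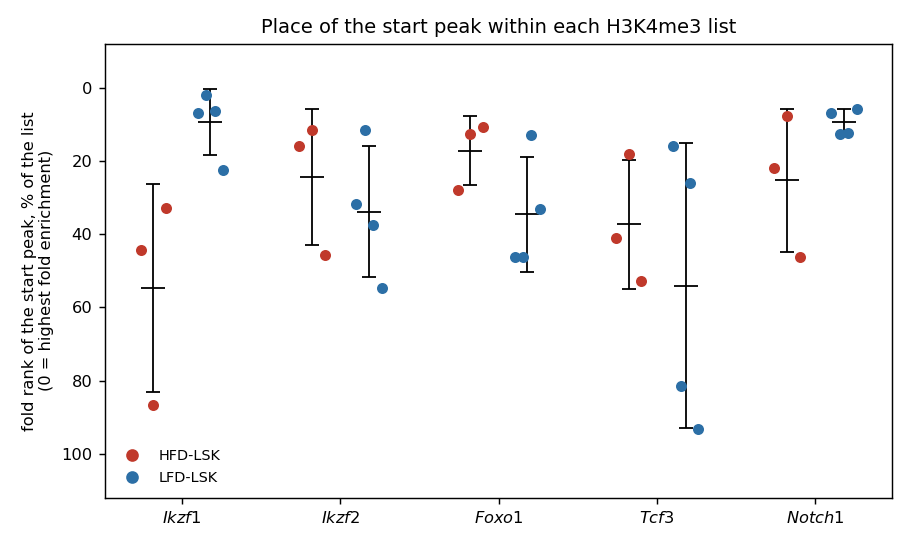
Place of the start peak in each list as a percent of the list (vertical axis, 0 is the highest fold enrichment), for the 5 early factors. Points are lists, and bars show mean ± SD over 3 HFD-LSK and 4 LFD-LSK lists. The diets do not overlap for Ikzf1, at 32.9% to 86.7% in HFD-LSK and 1.90% to 22.4% in LFD-LSK, and overlap for the other 4 genes.

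Width was the summed length of the peaks that reached within 1 kb of the start. Mean width over the lists ran from 1063 bp at Tcf3 to 2662 bp at Foxo1. Every early factor was wider on average in HFD-LSK. The diet difference was 373 bp for Ikzf1, 334 bp for Tcf3, 325 bp for Ikzf2, 265 bp for Notch1 and 34.6 bp for Foxo1. The mean widths of Ikzf1 and Ikzf2, 1671 and 1493 bp, lay closer together than the diets did for either gene. Whether width differed more between genes than between diets was not tested. Foxo1 carried the widest domain on average, at 2198, 3092 and 2754 bp in HFD-LSK and 2483, 2588, 2815 and 2701 bp in LFD-LSK. Its mean of 2662 ± 280 bp (SD, n = 7 lists) was exceeded by 0.877% of starts called in all 7 lists, for which the median width was 1123 bp. The diets overlapped, with a difference of 34.6 bp (exact permutation p = 0.886).

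Notch1 had a mean width of 1928 ± 910 bp (SD, n = 7 lists), exceeded by 6.37% of those starts. Foxo1 was wider than Notch1 in 5 of 7 lists, and Notch1 was wider in replicate 2 of each diet. Its widths were 1780, 3183 and 1275 bp in HFD-LSK and 2407, 2816, 1384 and 649 bp in LFD-LSK. The spread was the largest among the 5, and the narrowest domain came from the smallest list.

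Ikzf1 measured 1554, 2337 and 1762 bp in HFD-LSK and 1357, 2213, 1528 and 946 bp in LFD-LSK. Ikzf2 measured 1381, 2275 and 1381 bp in HFD-LSK and 1314, 2055, 1372 and 674 bp in LFD-LSK. For both, LFD-LSK replicate 2 was the only LFD-LSK list wider than the narrowest HFD-LSK list. Without that list, the one that made the overlap, their diets no longer overlapped, with HFD-LSK wider. The exact permutation p for Ikzf1 was then 0.100, the smallest that 3 lists against 3 allow. The choice of list fixed this outcome, so nothing is concluded from it. Ikzf1 was wider than Ikzf2 in 7 of 7 lists, with means of 1671 ± 484 bp and 1493 ± 528 bp (SD, n = 7 lists). The difference was smaller than the SD over lists, but that SD ignores that both genes share each list. A paired test was not run.

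Tcf3 had the narrowest domain, at 1227, 1833 and 702 bp in HFD-LSK and 1236, 1046, 1037 and 361 bp in LFD-LSK, and it was narrower than Ikzf2 in 7 of 7 lists. None of the 5 early factors separated the diets by width, and the smallest adjusted p was 0.715. Among starts called in all 7 lists, 6.81% were wider in every HFD-LSK list and 0% narrower, beside a median peak width of 757 to 1198 bp over the HFD-LSK lists and 525 to 961 bp over the LFD-LSK lists. The part of list length and of peak width in the width differences was not tested.

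**Figure D4:**
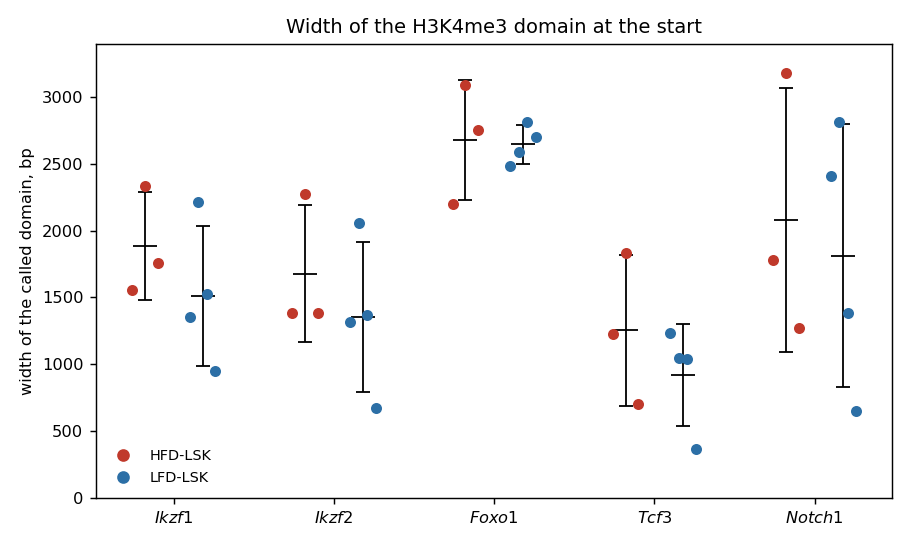
Width of the called H3K4me3 domain at the start in bp (vertical axis) for the 5 early factors. Points are lists, and bars show mean ± SD over 3 HFD-LSK and 4 LFD-LSK lists. Foxo1 has the widest domain on average, at 2198 to 3092 bp, Notch1 is wider in 2 of the lists, and the diets overlap for every gene.

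Measured from the 5′ end of the gene span, the domains sat differently on the genes. At Foxo1 and Ikzf2 the summit lay within 286 and 397 bp of the start, and at Notch1 within 389 bp. At Tcf3 it lay 434 to 875 bp inside the gene, whose RefSeq promoter entry starts 341 bp into the gene span. At Ikzf1 it lay 659 to 1302 bp inside the gene, around the first RefSeq promoter entry, whose start is 963 bp downstream of the 5′ end of the gene span. The downstream edge of the Foxo1 domain lay 1490 to 2314 bp from the start and the upstream edge 497 to 919 bp before it. The Notch1 domain reached 378 to 2666 bp into the gene and began 270 to 687 bp before the start.

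**Figure D5:**
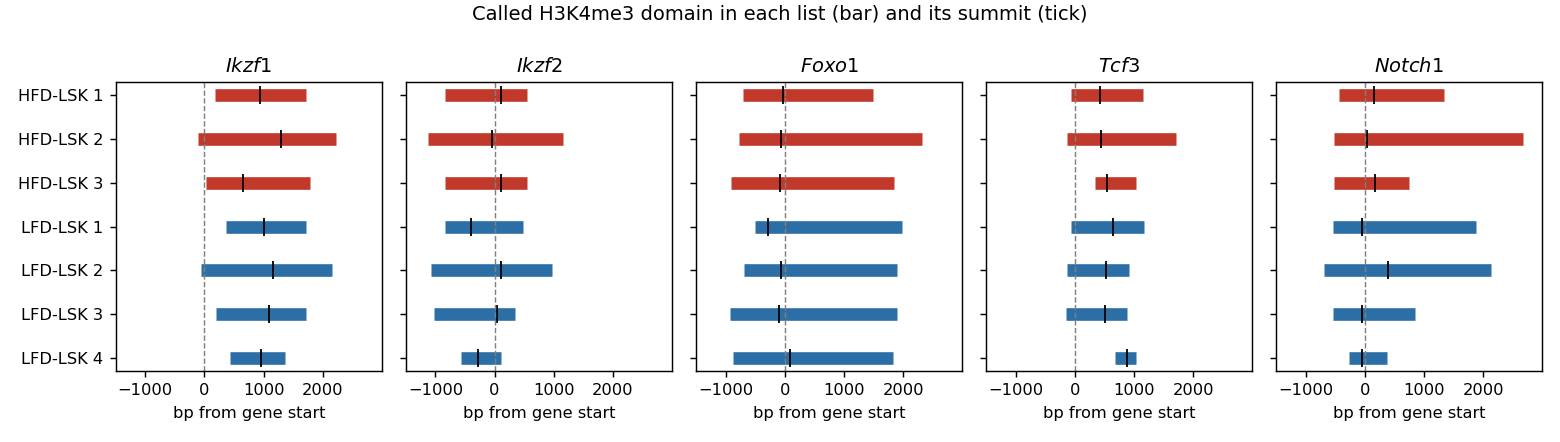
Called H3K4me3 domain of each list (bar) and its summit (tick) along the 5 early factors, with distance from the gene start in bp on the horizontal axis, positive into the gene. Summits lie 659 to 1302 bp inside Ikzf1 and 434 to 875 bp inside Tcf3, and near the start at the other 3 genes. The first RefSeq promoter entry starts 963 bp into the gene span at Ikzf1 and 341 bp at Tcf3.

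Peaks inside the members but away from the start were listed next. Merging the lists gave 9 gene body regions over the 10 members, 8 of them in early factors and 1 in Pax5, and 6 of the 9 were called in 1 list only. Their fold enrichments ran from 4.53 to 8.77. HFD-LSK replicates 2 and 3, the longest lists, called 7 and 4 of the 9, LFD-LSK replicates 2 and 3 called 2 and 1, and the other 3 lists called 0. None of the 9 separated the diets by place (smallest adjusted p = 0.996 over 14659 merged regions, exact permutation test).

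At Ikzf1, the region at chr11:11689797-11690894 spans the second promoter entry, the one that held 1 CpG. HFD-LSK replicates 2 and 3 and LFD-LSK replicate 2 called it, with fold enrichments of 5.43, 6.43 and 5.39, and places 12217.5, 7490 and 9308.5. The first entry was called in all 7 lists and the second in 3. HFD-LSK replicate 2 alone had 3 further small regions in Ikzf1, of 284 to 453 bp.

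At Ikzf2, the region at chr1:69682144-69683394 lies 3957 to 5207 bp inside the gene and was called in the same 3 lists, with places 11238, 4027 and 8834. In HFD-LSK replicate 3 this region lay nearer the top than the Ikzf2 start peak, which held place 5458.5. A second region, at chr1:69684275-69684862, was called in HFD-LSK replicate 2 and LFD-LSK replicate 3. In Notch1, HFD-LSK replicate 3 alone had regions at chr2:26483279-26483794 and chr2:26492630-26493338. Exon and intron positions of this build were not used here.

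Lists of other lymphoid genes were counted in the same way. Of 14 further early progenitor genes, 6 (42.9%) were called at the start in all 7 lists, 4 in some lists and 4 in none. The shares over all protein-coding starts were 20.2% in all 7 lists and 48.7% in none. Bcl11a, a zinc-finger factor of lymphoid progenitors, and Myb, a factor that progenitors need, lay nearest the top, at mean places of 1319 and 2354. Mef2c, Ets1, Rbpj and Ikzf4 had no peak at the start. Mef2c, Ets1 and Rbpj had a peak elsewhere in the gene in 7 of 7 lists and Ikzf4 in 1, so the 5′ end of a gene span can miss a start in use.

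Of 10 further B lineage genes, 0 were called in all 7 lists, 5 in some and 5 in none. Over all protein-coding starts, 20.2% were called in all 7 lists and 48.7% in none. The 5 of 10 called in none lie near that share and are not read as a result about the lineage. Bach2, a repressor used in B cells and progenitors, was called in 6 lists, at a mean place of 5396 with the uncalled list placed below its last peak. Cd79b, a chain of the B cell receptor complex, was called in 3. The genes not called in any list were Cd79a, Vpreb1, Igll1, Blnk and Pou2af1, which encode B cell receptor, pre-B receptor, signaling and transcription proteins, and none of them had a peak inside the gene.

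Rag2, the partner of Rag1, was called in HFD-LSK replicate 2 only, at place 11874, and 4 lists had a peak inside Rag2, which overlaps Iftap. Lef1 was called in 3 lists. Dntt, which encodes the terminal transferase that adds bases at receptor joints, was called in 2 HFD-LSK and 0 LFD-LSK lists (Fisher's exact test, p = 0.143). Hes1, a target of Notch signaling from the early progenitor list, had the same calls (Fisher's exact test, p = 0.143). A peak overlapped the Hes1 gene in 3 lists. These 4 genes were named after their values were seen. The share of all starts called in 2 HFD-LSK and 0 LFD-LSK lists is not given here. The calls of Dntt and Hes1 are therefore not read as a difference between diets.

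Of 9 T lineage genes, 0 were called at the start in any list, while 48.7% of all protein-coding starts were called in none. Tcf7, Bcl11b, Cd3e, Cd3g, Ptcra, Cd4 and Cd8a had no peak inside the gene either. Gata3, a factor of T cells and of stem cells, had a peak away from its 5′ end in 7 lists, and Lck, a T cell kinase, in 4.

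The starts with places most like those of Notch1 over the 7 lists were Zc3hav1, Ankrd50 and Pik3r3, at mean absolute differences of 298, 320 and 382 places. No late gene had a place, so none was matched.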

How the data were processed

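The H3K4me3 libraries were grouped by diet from their labels, which name the assay CUT&RUN, whereas the study describes CUT&Tag. The 7 IgG libraries were not analysed here. Per the submitters' processing notes, the authors used Trim Galore, Bowtie2, Picard and MACS2 with the build GRCm38, whereas the methods of the study name GRCm39 and SEACR; versions are not given in the sources used here. Each list was called for 1 H3K4me3 library, and whether an IgG library served as its control was not checked here. The authors deposited, for every peak, a fold enrichment (a ratio of summit to local background), a −log10 p-value and −log10 q-value, and a score derived from them. Gene spans and promoters came from RefSeq GRCm38.p6, and strands missing there, Ikzf2 and Ikzf3 included, were taken by symbol from GENCODE. Of 21887 protein-coding genes, 21440 received a start.

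Ranks, widths and exact tests were computed with Python 3.11.15, numpy 2.4.6, pandas 2.3.3 and scipy 1.17.1, and lists were merged with bedtools 2.31.1. A list without a peak at a start was given the middle of the places below its last peak. Fragments and background were recovered by solving the MACS2 fold and Poisson p-value together, which a whole number of fragments satisfied for 100% of peaks within a relative error of 0.0002. These are inferred values, and their intervals were not computed. The steps were tested on simulated data. The members, the lists of other genes and the tests were chosen with earlier results of these data known. The values of 2 genes of the other lists are not reported here, and the counts leave them out. From the other lymphoid lists, named genes were the 2 nearest the top and every gene called in no list. Also named were all members, some cell type markers and the 3 starts most like the leading member. Same-numbered libraries of the diets did not deviate together, with correlations over starts of 0.0729, 0.0183 and −0.012, so they were not paired. These correlations cannot show that the libraries have no cohort structure. The study describes adding a further cohort of LSK cells, and its peak comparison took batch and pairing into account. The library titles name no cohort, so the tests here did not account for it. Alternatives covered the ranking column, thresholds, windows, widths and libraries.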

Additional observations from a re-analysis of the deposited data

Results flagged for a closer look

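The local background at the Foxo1 summit stood apart in LFD-LSK replicate 2, at 0.566 on the scale of the background track, which is 10.5 times the lowest background of that list. The other 3 LFD-LSK lists were at 1.00 to 2.66 times their lowest. A test for a single outlying value among 4 singled it out, and chance does so for about 1 in 20 groups of this size. Of the LFD-LSK lists, this one had Foxo1 farthest from the top, at place 4880, with a summit height of 256 times the mean coverage beside 210 to 258 in the other 3. HFD-LSK replicate 3 had a background multiple of 9.46 at the Foxo1 summit and the place nearest the top of the 7 lists, 1285. The part of the background in the place was not tested.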

How the results depend on the processing

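With a 3 kb window, with RefSeq promoter starts (added after the data were seen) and without any 1 list, 5 members were called in every list. With an equal number of peaks per list, 3 members remained called in every list, Tcf3 and Ikzf1 being lost, and 4 with a −log10 q of at least 5, which lost Tcf3. With the summit required within 1 kb, 4 remained and Ikzf1 was lost, since its summit lies past 1 kb in some lists. No member was called in 1 diet alone under any alternative run, and gene body regions gave 0 without overlap in each.

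Ikzf1 was the only member whose places did not overlap between diets. The count was 1 under percent ranks, an equal number of peaks, a −log10 q of at least 5, a 3 kb window and ranking uncalled lists just below the last peak. It was 0 by −log10 p and 0 with the summit within 1 kb, where the Ikzf1 difference was −2666 places. In that setting HFD-LSK replicate 2 and LFD-LSK replicates 1 to 3 had no Ikzf1 call and got an assigned place. The count was also 0 by recovered summit fragments, an alternative added after the data were seen, where the difference was −49.7. Leaving out 1 list gave 1 to 2, with Notch1 joining without HFD-LSK replicate 2, and no permutation p could then pass 0.05. Leaving out 1 list gave 0 to 2 for width, the 2 being Ikzf1 and Ikzf2 without LFD-LSK replicate 2.

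With same-numbered libraries paired in a replicate block, 2 members differed in 1 direction in all 3 pairs by place (Ikzf1 and Foxo1) and 2 by width (Ikzf1 and Ikzf2), where the smallest exact p is 0.25. The Notch1 width difference was then −123 bp. The share of all starts that did the same is not given for this setting or for leaving out 1 list. These counts are therefore not read as results about the members.

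Differences that did not pass a test also changed sign. For Ikzf2 places, the difference was −59.5 by −log10 p, −9.39 percent points by percent rank and −1325 by summit fragments, and it ran from −1309 to 683 without 1 list. For Tcf3 places, it was 438 by summit fragments and ran from −1762 to 721 without 1 list. With an equal number of peaks, the Ikzf1 width difference was −406 bp. The Ikzf1 peak of HFD-LSK replicate 2, at place 11351, was then cut and counted as having no width. Relative to the median peak width, the width difference was −0.754 for Foxo1 and −0.153 for Notch1. Without 1 list it ran from −171 to 276 bp for Foxo1 and from −286 to 668 bp for Notch1. The causes were not tested. The planned difference in place between late and early members was not computed, because no late gene had a place.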
